A study of Mus musculus with 12 samples.

Results

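The genes described here copy the genome in S phase and supply its building blocks. They are 44 genes of DNA replication and nucleotide synthesis, taken from a written list and found by gene identifier among the 26305 identifiers of the deposited count table. All 44 were found, and all 44 passed the filter on low counts. They were placed in 5 steps, with 6 genes of origin licensing, 11 of the replicative helicase, 16 of the polymerases and the fork, 5 of nucleotide supply, and 6 of chromatin assembly and DNA methylation. RNA was sequenced from mouse embryonic fibroblasts, primary cells isolated at E13.5 from wild type C57BL/6 embryos, which the labels give as male, and grown in 3% O2 and 5% CO2. The groups were WM-2474 at 10 µM for 240 h, DMSO (the vehicle) for 240 h, WM-2474 at 10 µM for 96 h and DMSO for 96 h, with 3 biological replicates in each of the 4 groups and 12 libraries in all. WM-2474 is labelled as an inactive control, and its active relatives were not among the samples. The labels do not say how the embryos were divided over the replicates, so that the p-values measure the spread between these 12 cultures.

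A replication origin is prepared in G1, when the origin recognition complex (Orc1, Orc2 and Orc6 are subunits) and the factors Cdc6 and Cdt1 load the MCM2-7 ring on DNA, while geminin (Gmnn) holds Cdt1 back later in the cycle. In S phase Cdc45 and the GINS complex turn the ring into the active helicase, primase and polymerase alpha start each strand, and polymerases epsilon and delta extend it on the PCNA clamp. Ribonucleotide reductase and thymidylate synthase make the deoxynucleotides, and CAF-1, Nasp, Uhrf1 and Dnmt1 restore histones and DNA methylation behind the fork. Much of this set is transcribed under the E2F factors, so that its transcripts are abundant in cycling cells and scarce in resting ones.

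Because E2F control is the property these genes are best known for, and because they moved together below, promoters were searched for E2F-type letters. RefSeq windows on GRCm38.p6 (250 bases before to 50 after an annotated start) were held for 37 of the 44 genes, in 45 windows. The search used TTTNNCGC on either strand, and 16 of 37 genes had it (43.2%), against 5.93% of 27025 genes with a window and 9.85% of the 10391 tested genes with one. The CCAAT box, searched as CCAAT on either strand, was in 24 of 37 (64.9%), against 41.1% of all genes and 43.2% of tested genes. The cell cycle homology region, searched as TTTGAA on either strand, was in 6 of 37 (16.2%), against 20.2% and 14.2%. Matches are letters in a window, not measured binding, and they can overlap each other, as the 2 E2F-type matches of Mcm5 do. Matches of Mcm3, Gins3, Pola1, Pold1 and, in nucleotide supply, Tyms are among those not printed. The sites below are a selection and show the matched letters and their flanks in 4 of the steps. They are written 5′ to 3′ on the strand that reads TTTNNCGC, with the match in capitals, and the number is the first base of the match along the gene, counted from the start as +1.
Orc1, chromosome 4, -27: agaaaactTTTCGCGCcactaacc
Cdc6, chromosome 11, -138: ccaggcgaTTTCCCGCtctccacc
Mcm5, chromosome 8, -153: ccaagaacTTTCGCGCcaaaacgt
Mcm6, chromosome 1, -110: cgtatgctTTTGGCGCgaaaagtg
Mcm7, chromosome 5, 17: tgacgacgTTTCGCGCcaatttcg
Rfc3, chromosome 5, -10: tcgcacgcTTTCGCGCtcgcggga
Pole2, chromosome 12, 11: gttcgcgaTTTGGCGCcaccgccg
Dnmt1, chromosome 9, 34: gggcagcgTTTGGCGCgggctgtg

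Whole windows are shown for the genes with the most negative change over time with DMSO in 4 of the steps, which are Cdt1 (licensing), Lig1 (the ligase that joins Okazaki fragments), Uhrf1 (methylation upkeep) and Tk1 (thymidine salvage). Capitals mark E2F-type and CCAAT matches, and a match on the other strand appears as its reverse complement. The Tk1 window held none of the letters searched. It was built on an annotated start that lies inside the gene's span (117815519 to 117826087).
Cdt1, chr8:122567765-122568064, plus strand: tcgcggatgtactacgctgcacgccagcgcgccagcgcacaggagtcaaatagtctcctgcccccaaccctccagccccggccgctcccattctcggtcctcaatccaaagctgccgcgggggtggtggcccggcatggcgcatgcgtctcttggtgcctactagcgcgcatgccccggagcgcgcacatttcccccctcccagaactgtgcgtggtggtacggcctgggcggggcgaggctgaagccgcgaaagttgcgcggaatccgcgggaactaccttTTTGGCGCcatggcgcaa
Lig1, chr7:13278576-13278875, plus strand: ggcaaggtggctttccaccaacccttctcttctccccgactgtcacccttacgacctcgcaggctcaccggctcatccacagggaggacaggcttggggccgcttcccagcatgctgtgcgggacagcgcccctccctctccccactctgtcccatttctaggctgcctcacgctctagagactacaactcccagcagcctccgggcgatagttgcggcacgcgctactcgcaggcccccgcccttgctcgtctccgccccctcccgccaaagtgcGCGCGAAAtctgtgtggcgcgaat
Uhrf1, chr17:56303087-56303386, plus strand: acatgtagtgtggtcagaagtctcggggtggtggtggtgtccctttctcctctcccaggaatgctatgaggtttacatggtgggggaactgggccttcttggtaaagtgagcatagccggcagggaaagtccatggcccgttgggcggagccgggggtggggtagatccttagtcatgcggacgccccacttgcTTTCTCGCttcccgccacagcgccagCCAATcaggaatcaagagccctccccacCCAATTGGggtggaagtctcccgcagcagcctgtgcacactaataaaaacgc
Tk1, chr11:117825965-117826264, minus strand: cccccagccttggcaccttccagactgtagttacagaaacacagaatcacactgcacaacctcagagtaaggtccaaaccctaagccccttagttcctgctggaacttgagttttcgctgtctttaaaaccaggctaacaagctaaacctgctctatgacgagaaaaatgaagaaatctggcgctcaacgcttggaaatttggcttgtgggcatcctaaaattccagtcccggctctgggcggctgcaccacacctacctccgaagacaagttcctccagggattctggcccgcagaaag
The Uhrf1 window held 1 E2F-type match and 3 CCAAT matches, of which the last pair overlap as CCAATTGG. Where several windows belonged to a gene, the one with the most E2F-type matches is printed, or the first listed where they tied. Lig1 had 3 windows, and Uhrf1 had 2 with 1 E2F-type match each, that of the window not shown beginning at -185.

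The libraries held 7313007 to 26019167 counts assigned to genes, and the smallest count of any of the 44 genes in any library was 27, for Gins1 in DMSO 240 h replicate 2. A floor of 3 counts came to 0.115 to 0.410 CPM per library (counts scaled to a common library size), and covers counting error only. Fibroblast markers were abundant throughout, with 10 markers summing to between 48124 and 52723 CPM at 240 h, against 31395 to 37316 CPM at 96 h. DMSO 240 h replicates 1 and 2 stood apart, since 13 B-lineage markers summed to 12.2 and 15.9 CPM there, against 1.32 CPM in replicate 3 of that group and between 0.598 and 3.24 CPM in the other 9 libraries. Xist, the transcript of a silenced X chromosome, had 5.24 and 4.48 CPM in that pair and at most 0.925 CPM elsewhere, although all samples are labelled male. For the 44 genes as a set, medians that include the pair are also given without it. Of the B-lineage list, Ms4a1 and Blk were at 0 in the DMSO 240 h group. Endothelial markers (5 genes) summed to 2.29 to 4.81 CPM at 240 h, against 5.10 to 7.94 CPM at 96 h, and myeloid markers (8 genes) to 5.20 to 8.03 CPM, against 6.89 to 9.10 CPM. Markers of epithelium and red cells were below 1.30 CPM in sum in every library. The part of these cells in the results over time was not tested.

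Per length of gene, ribonucleotide reductase was the most abundant of the set. The large subunit Rrm1 had 50.8 RPKM (CPM per kilobase of exon, mean of 12 libraries) and the small subunit Rrm2 had 48.6 RPKM, followed by the clamp Pcna at 40.5 RPKM. The median of the 44 genes was 13.7 RPKM, against 9.35 RPKM over all 13499 tested genes. The 6 subunits of the MCM2-7 ring, which assemble in equal number, ranged from 16.2 RPKM (Mcm5) to 37.2 RPKM (Mcm6). The loader Cdc6 at 2.62 RPKM and the GINS subunit Gins3 at 2.27 RPKM were the lowest. Levels within the GINS complex were unequal, with Gins2 at 21.9 RPKM and Gins1 at 4.05 RPKM.

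**Figure D1:**
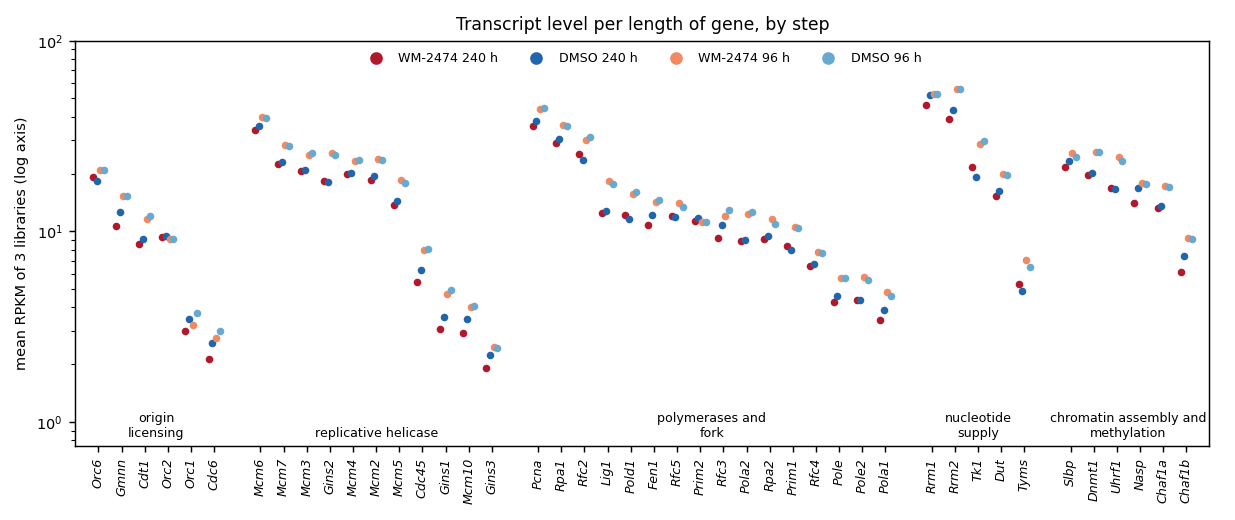
Mean RPKM of 3 libraries (log axis) for each of the 44 genes, by step and sorted within a step, with 1 point per group. Rrm1 and Rrm2 lie at the top and Gins3 and Cdc6 at the bottom, and in most genes both 240 h points lie below both 96 h points.

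The comparison of 240 h with 96 h asked how replication genes changed with time in culture, separately in each treatment. With WM-2474, 36 of the 44 genes were lower at 240 h and 0 were higher, where 14.8% of all tested genes were lower and 15.9% higher (edgeR's quasi-likelihood test, adjusted p under 0.05, n = 3 per group). With DMSO, 27 were lower and 0 higher, where 17.3% of all tested genes were lower and 17.5% higher. The median log2 fold change of the 44 genes was -0.38 with WM-2474 and -0.27 with DMSO, and over all tested genes it was -0.0039 with WM-2474 and -0.0064 with DMSO. Expressed as a level, the median of the 44 genes fell by 23.0% with WM-2474 and fell by 17.2% with DMSO. In each treatment 42 of 44 log2 fold changes were below 0, where 50.7% of all tested genes were with WM-2474 and 51.1% with DMSO, and Orc2 and Prim2 were the exceptions in both, except that they too were below 0 when libraries were scaled by their totals alone. That scaling moved the median of all tested genes to -0.14 with WM-2474 and -0.13 with DMSO. The median of the 44 genes minus that median was -0.37 with WM-2474 and -0.27 with DMSO under either scaling. Of all called genes, 80.0% were then lower with WM-2474, against 48.2% in the main scaling, and 78.6% with DMSO, against 49.6%. All 3 libraries at 240 h lay below all 3 at 96 h for 38 genes with WM-2474, where 21.2% of tested genes did so, and for 33 genes with DMSO, where 22.8% did so. In these bulk samples fewer cells in S phase and less of a transcript per cell cannot be told apart.

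Library by library, the median of the 44 genes relative to the mean of the DMSO 96 h libraries was -0.45, -0.35 and -0.27 (log2) in WM-2474 240 h replicates 1, 2 and 3, and -0.28, -0.28 and -0.26 in DMSO 240 h replicates 1, 2 and 3. At 96 h it was 0.03, -0.02 and -0.0018 in the WM-2474 libraries and 0.01, -0.02 and -0.0006 in the DMSO libraries. The 240 h and 96 h libraries did not overlap in this median. DMSO 240 h replicate 3, which had the low B-lineage level, had a median close to those of replicates 1 and 2. Without replicates 1 and 2 the DMSO group at 240 h is a single library, assumed to vary like the others. The median log2 fold change of the 44 genes over time was then -0.26, with 42 of 44 values below 0. By step it was -0.22 for licensing, -0.27 for the helicase and -0.25 for the polymerases and fork. For nucleotide supply it was -0.33, and for chromatin assembly and methylation -0.29. Calls lost in that fit were those of Mcm4, Mcm6, Cdc45, Gins1, Prim1, Fen1, Dut and Chaf1b, with log2 fold changes between -0.29 (Fen1) and -0.14 (Mcm6). WM-2474 240 h replicate 1 had the lowest median of the 12 libraries, and without it 32 genes were lower with WM-2474, at a median of -0.33.

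**Figure D2:**
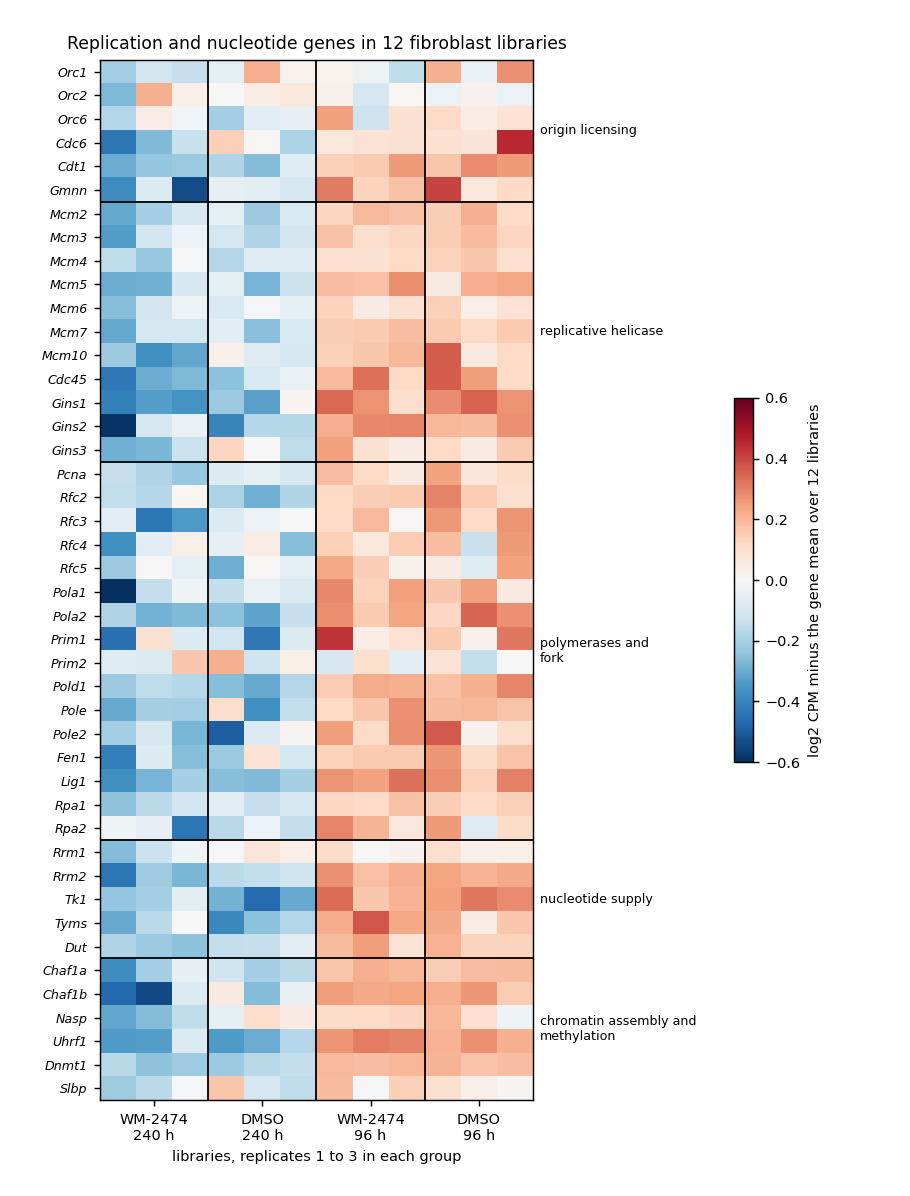
Log2 CPM minus the gene's mean over 12 libraries, with genes in rows by step and libraries in columns by group (replicates 1 to 3). Blue is lower and red higher, and colours end at ±0.6. The 6 columns at 240 h are mostly blue and the 6 at 96 h mostly red, while Orc2 and Prim2 show no such split.

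Among the licensing genes, the loader Cdt1 fell in both treatments, while the origin recognition subunits did not pass the test in either. Of 6 genes, 3 were lower with WM-2474 (Cdt1, Gmnn and Cdc6), where 14.8% of all tested genes were. With DMSO 1 of 6 was lower (Cdt1), a share near the 17.3% of all tested genes. The median log2 fold change was -0.24 with WM-2474 and -0.22 with DMSO. Cdt1 (gene 67177, chromosome 8 from 122568015 to 122573130) had 18.2, 19.1 and 19.2 CPM with WM-2474 and 19.8, 18.7 and 21.3 CPM with DMSO at 240 h, against 24.7, 25.04 and 26.8 CPM with WM-2474 and 25.1, 27.3 and 26.8 CPM with DMSO at 96 h. No library at 240 h reached the lowest one at 96 h. The log2 fold change of Cdt1 was -0.43 ± 0.08 (SE) with WM-2474 (adjusted p = 0.000204) and -0.38 ± 0.08 with DMSO (adjusted p = 0.000594). Geminin (Gmnn), the inhibitor of Cdt1, stood at 9.98, 12.2 and 8.90 CPM in the WM-2474 libraries at 240 h, against 16.03, 14.2 and 14.6 CPM at 96 h, and at 12.5, 12.4 and 12.1 CPM in the DMSO libraries at 240 h, against 17.1, 13.53 and 14.1 CPM at 96 h. Its time groups did not overlap in either treatment, and it fell by 29.8% with WM-2474 (-0.51 ± 0.12, adjusted p = 0.00215) while the value with DMSO did not pass (-0.30 ± 0.12, adjusted p = 0.0513).

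Cdc6, the ATPase that loads the MCM ring, had 9.01, 10.1 and 11.1 CPM (WM-2474, 240 h), 13.45, 12.2 and 10.7 CPM (DMSO, 240 h), 12.8, 12.9 and 12.98 CPM (WM-2474, 96 h) and 12.99, 12.8 and 16.6 CPM (DMSO, 96 h). Its libraries at 240 h lay below those at 96 h with WM-2474 and overlapped with DMSO, where replicate 1 at 240 h was above both lower 96 h libraries. The log2 fold change was -0.36 ± 0.13 with WM-2474 (adjusted p = 0.0349) and -0.27 ± 0.12 with DMSO (adjusted p = 0.0864). The call with WM-2474 was lost in 7 of 22 alternative settings. Orc1, the origin recognition subunit whose level is known to follow the cell cycle, had 8.68, 9.29 and 9.14 CPM with WM-2474 and 9.63, 11.68 and 10.2 CPM with DMSO at 240 h, against 10.2, 9.83 and 9.05 CPM with WM-2474 and 11.6, 9.75 and 12.1 CPM with DMSO at 96 h. Its groups overlapped in both time comparisons, with log2 fold changes of -0.10 ± 0.12 with WM-2474 and -0.11 ± 0.12 with DMSO. Orc2, another subunit of the complex, had 25.8, 36.2 and 32.03 CPM (WM-2474, 240 h), 31.1, 32.1 and 32.7 CPM (DMSO, 240 h), 31.8, 28.99 and 31.3 CPM (WM-2474, 96 h) and 30.3, 31.6 and 30.4 CPM (DMSO, 96 h). WM-2474 240 h replicates 1 and 2 held both its lowest and its highest value, and its log2 fold changes were 0.04 ± 0.09 with WM-2474 and 0.06 ± 0.09 with DMSO. Orc6 had log2 fold changes of -0.13 ± 0.09 with WM-2474 (adjusted p = 0.282) and -0.18 ± 0.08 with DMSO (adjusted p = 0.104).

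The replicative helicase fell almost as a whole. With WM-2474, 10 of 11 genes were lower, where 14.8% of all tested genes were, at a median of -0.37. With DMSO 9 of 11 were lower, where 17.3% of all tested genes were, at a median of -0.27. All 6 subunits of the MCM2-7 ring were lower in both treatments, with log2 fold changes between -0.45 (Mcm5) and -0.22 (Mcm6) with WM-2474, and between -0.32 (Mcm5) and -0.14 (Mcm6) with DMSO. Mcm6, the most abundant subunit, had 90.3, 99.6 and 105 CPM with WM-2474 and 101, 107 and 104 CPM with DMSO at 240 h, against 119, 112 and 115 CPM with WM-2474 and 119, 111 and 114 CPM with DMSO at 96 h. Every 240 h library lay below every 96 h library, by a margin of a few CPM with DMSO, and the log2 fold change was -0.22 ± 0.06 with WM-2474 (adjusted p = 0.00271) and -0.14 ± 0.05 with DMSO (adjusted p = 0.0475). The DMSO call for Mcm6 was lost in 9 of 22 alternative settings, and that for Mcm4 was lost without DMSO 240 h replicates 1 and 2 (adjusted p = 0.0758). Mcm2, Mcm3, Mcm4 and Mcm7 fell by 0.37, 0.29, 0.24 and 0.33 on the log2 scale with WM-2474, and by 0.27, 0.29, 0.24 and 0.27 with DMSO.

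Gins1, Gins2 and Cdc45 had the most negative log2 fold changes of the helicase in both treatments. GINS is the complex that, together with Cdc45, activates the ring. Gins2 (gene 272551, chromosome 8 from 120581266 to 120589075) had 14.9, 20.8 and 21.7 CPM with WM-2474 and 16.99, 19.8 and 19.9 CPM with DMSO at 240 h, against 26.00, 27.3 and 27.3 CPM with WM-2474 and 25.6, 25.5 and 27.01 CPM with DMSO at 96 h. WM-2474 240 h replicate 1 was the lowest library and the 96 h libraries were close together, without overlap between times. The log2 fold change of Gins2 was -0.48 ± 0.10 with WM-2474 (adjusted p = 0.000578) and -0.44 ± 0.10 with DMSO (adjusted p = 0.00101). Gins1 was read at 3.47, 3.66 and 3.58 CPM in the WM-2474 libraries at 240 h, against 5.85, 5.55 and 4.95 CPM at 96 h, and at 3.96, 3.67 and 4.65 CPM in the DMSO libraries at 240 h, against 5.61, 5.89 and 5.55 CPM at 96 h. These levels rest on 27 to 116 counts per library, and the call with DMSO (-0.41 ± 0.15, adjusted p = 0.0406) was lost in 10 of 22 alternative settings, while with WM-2474 the value was -0.61 ± 0.17 (adjusted p = 0.00613). Gins3 had 4.45, 4.49 and 4.97 CPM (WM-2474, 240 h), 5.95, 5.43 and 4.89 CPM (DMSO, 240 h), 6.45, 5.80 and 5.63 CPM (WM-2474, 96 h) and 5.90, 5.62 and 6.07 CPM (DMSO, 96 h). Its groups were apart with WM-2474 and overlapped with DMSO, and neither log2 fold change passed (WM-2474 -0.37 ± 0.15, adjusted p = 0.067, and DMSO -0.16 ± 0.15, adjusted p = 0.433). Cdc45, the third part of the active helicase, was lower in both treatments (-0.55 ± 0.11 with WM-2474, -0.35 ± 0.10 with DMSO). Mcm10, which helps start unwinding, was lower with WM-2474 (-0.47 ± 0.11, adjusted p = 0.0021) and did not pass with DMSO (-0.26 ± 0.11, adjusted p = 0.0586).

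Of 16 genes of the polymerases and the fork, 12 were lower with WM-2474 and 9 with DMSO, at medians of -0.36 and -0.26. The lower shares over all tested genes were 14.8% with WM-2474 and 17.3% with DMSO. The ligase Lig1 and the catalytic subunit of polymerase delta, Pold1, had the largest falls with DMSO. Lig1 (gene 16881, chromosome 7 from 13277175 to 13311426) had 41.1, 43.7 and 46.1 CPM with WM-2474 and 44.5, 44.1 and 46.2 CPM with DMSO at 240 h, against 63.9, 62.7 and 66.6 CPM with WM-2474 and 64.3, 58.4 and 65.4 CPM with DMSO at 96 h. The lowest 96 h library stood more than 10 CPM above the highest 240 h library. Lig1 fell by 32.2% with WM-2474 (-0.56 ± 0.06, adjusted p = 1.13e-07) and fell by 28.1% with DMSO (-0.48 ± 0.06, adjusted p = 1.25e-06). Pold1 had 40.4, 42.3 and 41.7 CPM (WM-2474, 240 h), 39.4, 38.03 and 41.5 CPM (DMSO, 240 h), 52.2, 54.9 and 54.5 CPM (WM-2474, 96 h) and 53.1, 54.4 and 57.6 CPM (DMSO, 96 h). Its libraries were tightly grouped within each time and did not overlap between times, with log2 fold changes of -0.37 ± 0.06 with WM-2474 (adjusted p = 3.82e-05) and -0.46 ± 0.06 with DMSO (adjusted p = 1.76e-06).

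Other fork genes that were lower in both treatments were Pola2 (-0.47 with WM-2474, -0.46 with DMSO), the B subunit of polymerase alpha, and Pole (-0.42 with WM-2474, -0.31 with DMSO), the catalytic subunit of polymerase epsilon. The same held for the clamp Pcna (-0.30 with WM-2474, -0.23 with DMSO), the clamp loader subunit Rfc2 (-0.25 with WM-2474, -0.40 with DMSO), the flap nuclease Fen1 (-0.38 with WM-2474, -0.27 with DMSO) and the single-strand binding subunit Rpa1 (-0.31 with WM-2474, -0.24 with DMSO). The catalytic polymerase alpha subunit Pola1, the polymerase epsilon subunit Pole2, the clamp loader subunit Rfc3 and the binding subunit Rpa2 were lower with WM-2474 (from -0.48 for Pola1 to -0.34 for Rpa2). With DMSO these 4 had values of -0.24, -0.30, -0.25 and -0.23, with adjusted p between 0.0675 and 0.0943. The WM-2474 call of Pole2 was kept in 17 of 22 alternative settings. Prim1, the catalytic subunit of primase, was lower with DMSO (-0.35 ± 0.13, adjusted p = 0.0451), a call kept in 13 of 22 alternative settings. With WM-2474 Prim1 had a similar value that did not pass (-0.32 ± 0.13, adjusted p = 0.072).

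Some fork genes did not pass in either treatment. Prim2, the large primase subunit, had 20.8, 20.7 and 24.6 CPM with WM-2474 and 25.5, 20.2 and 22.6 CPM with DMSO at 240 h, against 20.5, 23.5 and 21.00 CPM with WM-2474 and 23.3, 19.9 and 21.97 CPM with DMSO at 96 h. All 4 groups overlapped, and the log2 fold changes were 0.02 ± 0.10 with WM-2474 (interval -0.18 to 0.22) and 0.06 ± 0.09 with DMSO (interval -0.14 to 0.25). Rfc5, a clamp loader subunit, had 18.99, 22.1 and 21.2 CPM (WM-2474, 240 h), 17.98, 22.1 and 21.2 CPM (DMSO, 240 h), 25.9, 24.5 and 22.5 CPM (WM-2474, 96 h) and 22.8, 21.00 and 26.04 CPM (DMSO, 96 h). The times were apart with WM-2474, where replicate 2 at 240 h nearly met replicate 3 at 96 h, and overlapped with DMSO. Neither value passed (WM-2474 -0.22 ± 0.10, adjusted p = 0.0821, and DMSO -0.18 ± 0.10, adjusted p = 0.152), nor did those of Rfc4 (-0.24 ± 0.14 with WM-2474 and -0.25 ± 0.14 with DMSO).

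**Figure D3:**
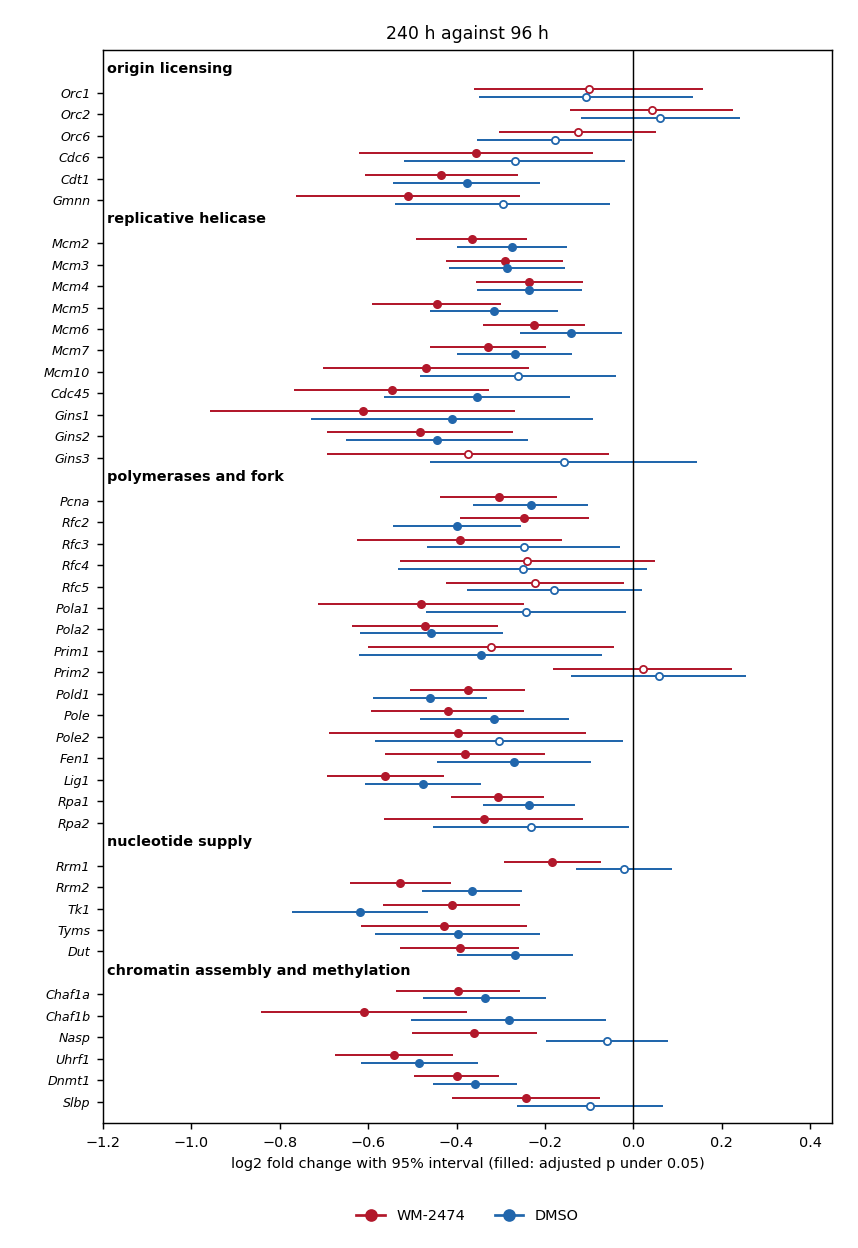
Log2 fold change of 240 h against 96 h with its 95% interval for each of the 44 genes by step, with WM-2474 in red above DMSO in blue. Filled points passed an adjusted p of 0.05, which 36 did with WM-2474 and 27 with DMSO, and filled points lie left of 0 in each case.

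Nucleotide supply had the most negative median of the 5 steps in both treatments, -0.41 with WM-2474 (5 of 5 lower) and -0.36 with DMSO (4 of 5 lower). Over all tested genes 14.8% were lower with WM-2474 and 17.3% with DMSO. Tk1 (gene 21877, chromosome 11 from 117815519 to 117826087), the salvage kinase for thymidine, had 28.5, 29.02 and 31.9 CPM with WM-2474 and 27.5, 24.3 and 27.1 CPM with DMSO at 240 h, against 42.3, 37.5 and 38.7 CPM with WM-2474 and 39.6, 41.7 and 40.8 CPM with DMSO at 96 h. Each 240 h library lay below each 96 h library, and within 240 h each WM-2474 library lay above each DMSO library. The log2 fold change over time was -0.41 ± 0.07 with WM-2474 (adjusted p = 9.76e-05) and -0.62 ± 0.07 with DMSO (adjusted p = 2.68e-07), the largest of the 44 genes with DMSO. Thymidylate synthase (Tyms), which makes thymidylate anew, had 18.01, 19.9 and 22.2 CPM (WM-2474, 240 h), 16.99, 18.7 and 19.7 CPM (DMSO, 240 h), 25.9, 28.7 and 26.1 CPM (WM-2474, 96 h) and 26.03, 22.9 and 24.9 CPM (DMSO, 96 h). Its times did not overlap in either treatment (WM-2474 -0.43 ± 0.09, adjusted p = 0.000588, and DMSO -0.40 ± 0.09, adjusted p = 0.00109).

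Of the 2 subunits of ribonucleotide reductase, Rrm2 was lower in both treatments and Rrm1 with WM-2474. Rrm2, the subunit whose supply is known to follow S phase, had 77.4, 90.3 and 86.4 CPM with WM-2474 and 93.6, 94.4 and 96.2 CPM with DMSO at 240 h, against 126, 119 and 122 CPM with WM-2474 and 123, 121 and 122 CPM with DMSO at 96 h. The 240 h libraries were all under 100 CPM and the 96 h libraries all above it, and Rrm2 fell by 30.6% with WM-2474 (-0.53 ± 0.05, adjusted p = 2.53e-08) and fell by 22.3% with DMSO (-0.36 ± 0.05, adjusted p = 6.91e-06). Rrm1, the large subunit that carries the active site, stood at 169, 186 and 199 CPM in the WM-2474 libraries at 240 h, against 219, 203 and 206 CPM at 96 h, and at 201, 213 and 208 CPM in the DMSO libraries at 240 h, against 217, 207 and 208 CPM at 96 h. With WM-2474 the times were apart and Rrm1 was lower at 240 h (-0.18 ± 0.05, adjusted p = 0.00873), while with DMSO they overlapped (-0.02 ± 0.05, interval -0.13 to 0.09). Dut, which removes dUTP so that uracil stays out of DNA, had 39.3, 38.2 and 37.5 CPM (WM-2474, 240 h), 40.2, 40.3 and 42.4 CPM (DMSO, 240 h), 50.7, 52.9 and 47.1 CPM (WM-2474, 96 h) and 51.3, 48.8 and 48.7 CPM (DMSO, 96 h). It was lower without overlap in both treatments (WM-2474 -0.39 ± 0.06, adjusted p = 3.09e-05, and DMSO -0.27 ± 0.06, adjusted p = 0.0016).

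All 6 genes of chromatin assembly and methylation were lower with WM-2474 and 4 were lower with DMSO, at medians of -0.40 and -0.31. Among all tested genes the lower shares were 14.8% with WM-2474 and 17.3% with DMSO. Uhrf1 (gene 18140, chromosome 17 from 56303337 to 56323486), which recognises hemimethylated DNA and brings Dnmt1 to it, had 57.7, 58.04 and 68.9 CPM with WM-2474 and 57.6, 59.4 and 64.7 CPM with DMSO at 240 h, against 87.8, 90.2 and 89.8 CPM with WM-2474 and 84.3, 88.2 and 84.5 CPM with DMSO at 96 h. In each treatment the highest 240 h library was well below the lowest 96 h library, and Uhrf1 fell by 31.3% with WM-2474 (-0.54 ± 0.06, adjusted p = 2.23e-07) and fell by 28.5% with DMSO (-0.48 ± 0.06, adjusted p = 1.11e-06). Dnmt1, the maintenance DNA methyltransferase, had 129, 122 and 125 CPM (WM-2474, 240 h), 124, 129 and 131 CPM (DMSO, 240 h), 165, 164 and 166 CPM (WM-2474, 96 h) and 166, 162 and 164 CPM (DMSO, 96 h). Its replicates agreed closely and its times did not overlap (WM-2474 -0.40 ± 0.05, adjusted p = 1.15e-07, and DMSO -0.36 ± 0.04, adjusted p = 6.29e-07). Chaf1a and Chaf1b, subunits of the histone chaperone CAF-1, were lower with WM-2474 (-0.40 ± 0.07 and -0.61 ± 0.11) and with DMSO (-0.34 ± 0.07 and -0.28 ± 0.11). The DMSO call of Chaf1b was kept in 15 of 22 alternative settings.

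The histone suppliers Nasp and Slbp were lower with WM-2474 and did not pass with DMSO. Nasp (gene 50927, chromosome 4 from 116601052 to 116628676), a chaperone that keeps a store of histones H3 and H4, had 41.99, 43.6 and 46.9 CPM with WM-2474 and 49.98, 55.96 and 53.9 CPM with DMSO at 240 h, against 56.3, 56.6 and 56.9 CPM with WM-2474 and 59.9, 55.8 and 50.98 CPM with DMSO at 96 h. The WM-2474 libraries at 240 h lay below the other 9 libraries, and the DMSO libraries of both times overlapped. The log2 fold change over time was -0.36 ± 0.07 with WM-2474 (adjusted p = 0.000174) and -0.06 ± 0.07 with DMSO (interval -0.19 to 0.08). Slbp, which binds the stem-loop of replication-dependent histone mRNAs, had 33.4, 34.7 and 38.5 CPM (WM-2474, 240 h), 43.5, 36.1 and 34.9 CPM (DMSO, 240 h), 44.2, 38.5 and 42.9 CPM (WM-2474, 96 h) and 41.5, 39.7 and 39.2 CPM (DMSO, 96 h). Its times overlapped in both treatments, and the log2 fold change was -0.24 ± 0.08 with WM-2474 (adjusted p = 0.0231, lost in 4 of 22 alternative settings) and -0.10 ± 0.08 with DMSO (adjusted p = 0.364).

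**Figure D4:**
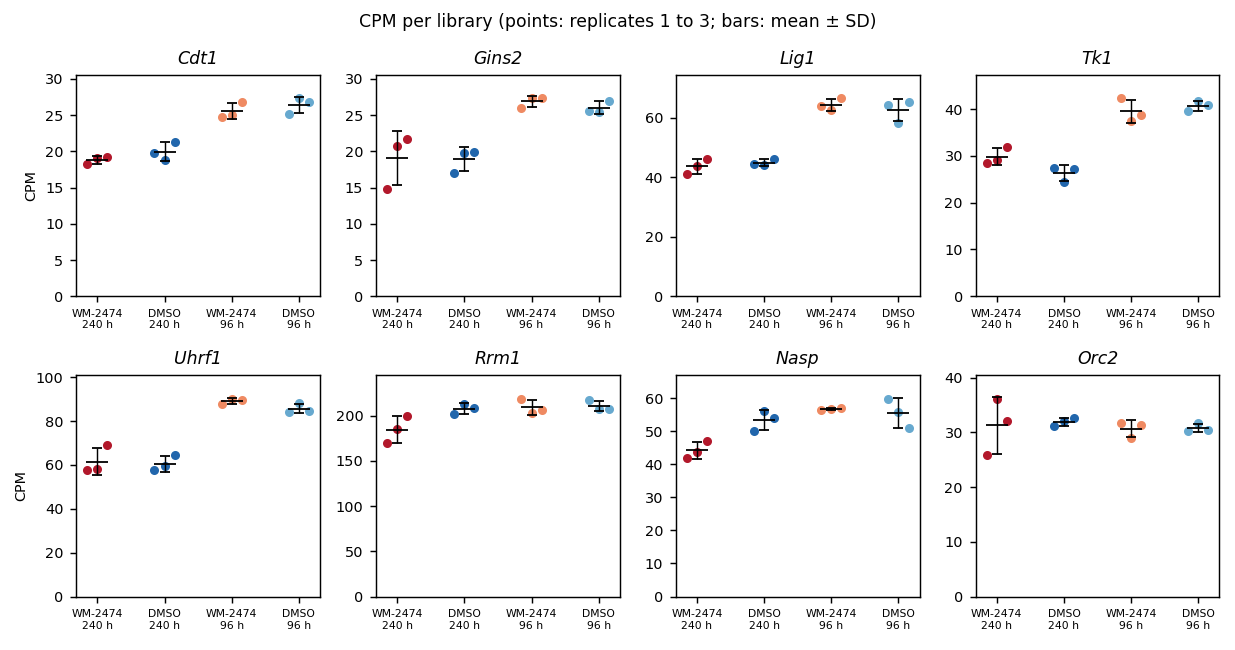
CPM in each library for 8 of the genes (axes start at 0), with replicates 1 to 3 as points and the group mean ± SD as bars. Cdt1, Gins2, Lig1, Tk1 and Uhrf1 are lower in both 240 h groups, Rrm1 and Nasp are lowest with WM-2474 at 240 h, and Orc2 overlaps in all groups.

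The lists of lower genes in the 2 treatments had 26 genes in common, which is 72.2% of the WM-2474 list and 96.3% of the DMSO list. Among all tested genes 14.8% were lower with WM-2474 and 17.3% with DMSO. How far those lists overlap was not counted, so that these overlaps cannot be called particular to the 44 genes. Past the test with WM-2474 and not with DMSO were Cdc6, Gmnn, Mcm10, Rfc3, Pola1, Pole2, Rpa2, Rrm1, Nasp and Slbp. With DMSO and not WM-2474 it was Prim1, and 7 passed in neither (Orc1, Orc2, Orc6, Gins3, Rfc4, Rfc5 and Prim2). That split does not show a difference between treatments, which was tested directly as the difference of the time changes. No gene of the 44 passed that test, and 0% of all tested genes did. The median difference was -0.08 (log2), with 37 of 44 values below 0, where 49.3% of all tested genes were below 0. Without WM-2474 240 h replicate 1, the library with the lowest median of the 44 genes, the median difference was -0.04. Without DMSO 240 h replicates 1 and 2 it was -0.09, with 37 of 44 values below 0 and 0 past the test.

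An unadjusted p under 0.05 for the difference was reached by 4 genes with a stronger fall under WM-2474 and by 0 with a weaker fall, where 1.93% and 2.7% of tested genes did so. The smallest p was that of Nasp at -0.30 ± 0.09 (interval -0.49 to -0.11, adjusted p = 0.977). Rrm1 (-0.16 ± 0.07), Rrm2 (-0.16 ± 0.08) and Chaf1b (-0.33 ± 0.15) each had the same adjusted p of 0.977. Tk1 had the largest value in the other direction (0.21 ± 0.10, interval -0.01 to 0.42). Without DMSO 240 h replicates 1 and 2, 1 gene (Nasp, -0.31) reached an unadjusted p under 0.05, and the values of Rrm1, Rrm2, Chaf1b and Tk1 were -0.17, -0.18, -0.35 and 0.17.

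WM-2474 was compared with DMSO at each time to ask what the control compound itself did to these genes. At 240 h 0 of 44 genes passed, with 0.0296% of all tested genes higher and 0% lower. The median log2 fold change was -0.07, and 34 of 44 values were below 0, where 49.4% of tested genes were. Limma-voom also called 0 of the 44, and DESeq2 called 0 of the 8 to which it gave an adjusted p. At an unadjusted p under 0.05 in DESeq2, 4 of 44 were lower and 0 higher. The share of all tested genes there was not counted, so that these counts have no background. In edgeR an unadjusted p under 0.05 was reached by 5 lower genes (Nasp, Rrm1, Rrm2, Chaf1b and Rfc3) and 1 higher gene (Tk1). Of tested genes, 3.37% were lower and 4.77% higher in that fit. By step the medians were -0.15 for licensing, -0.08 for the helicase, -0.05 for the polymerases and fork, -0.11 for nucleotide supply and -0.06 for chromatin assembly. The libraries did not overlap for 9 lower and 2 higher genes, where 6.72% and 7.58% of tested genes did so.

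Nasp averaged 44.2 ± 2.53 CPM with WM-2474 and 53.3 ± 3.04 CPM with DMSO at 240 h (SD, n = 3 each). It was lower in 3 of 3 WM-2474 libraries, by -0.28 ± 0.07 on the log2 scale (interval -0.42 to -0.13, adjusted p = 0.35). Without a filter on low counts the adjusted p of Nasp was 0.0497, and with the replicate number as a block in a fit of the 240 h libraries alone it was 0.0336, while over all alternatives it ranged to 0.994. Rrm1 averaged 185 ± 14.96 CPM with WM-2474 and 208 ± 5.92 CPM with DMSO (-0.17 ± 0.05, interval -0.28 to -0.06, adjusted p = 0.442), and Rrm2 84.7 ± 6.65 CPM with WM-2474 and 94.7 ± 1.33 CPM with DMSO (-0.16 ± 0.06, interval -0.28 to -0.05, adjusted p = 0.483). In both genes the 3 WM-2474 libraries lay below the 3 DMSO libraries. Tk1 averaged 29.8 ± 1.83 CPM with WM-2474 and 26.3 ± 1.73 CPM with DMSO, higher in 3 of 3 libraries (0.17 ± 0.08, interval 0.01 to 0.33, adjusted p = 0.598). For the other genes that fell most over time the intervals at 240 h were -0.19 to 0.09 (Lig1), -0.13 to 0.14 (Uhrf1), -0.08 to 0.19 (Pold1), -0.13 to 0.06 (Dnmt1) and -0.28 to 0.07 (Cdt1). The DMSO group here held the pair with B-lineage transcripts, whose part in these values was not tested. Without the pair the median of the 44 genes was -0.08, with 38 of 44 values below 0 and 0 past the test, and the values of Nasp, Rrm1, Rrm2 and Tk1 were -0.29, -0.17, -0.18 and 0.13. Without WM-2474 240 h replicate 1 the median was -0.05 and 0 passed.

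At 96 h 0 of 44 genes passed, as did 0% of all tested genes, and the median was 0.0018 with 21 of 44 values below 0, where 49.9% of tested genes were. No gene of the set reached an unadjusted p under 0.05 in edgeR, where 2.1% of tested genes did, and DESeq2 and limma-voom called 0 as well. The smallest p-values were those of Orc1 (-0.21 ± 0.12, interval -0.45 to 0.03), Tyms (0.12 ± 0.08, interval -0.05 to 0.30) and Cdc6 (-0.13 ± 0.12, interval -0.37 to 0.10). Their adjusted p was 1 after rounding. The groups overlapped in all 44 genes, where 3.62% of tested genes were apart and higher and 3.83% apart and lower. For Nasp, Rrm1 and Rrm2 the 96 h values were 0.02 ± 0.06, -0.01 ± 0.05 and 0.00 ± 0.05.

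**Figure D5:**
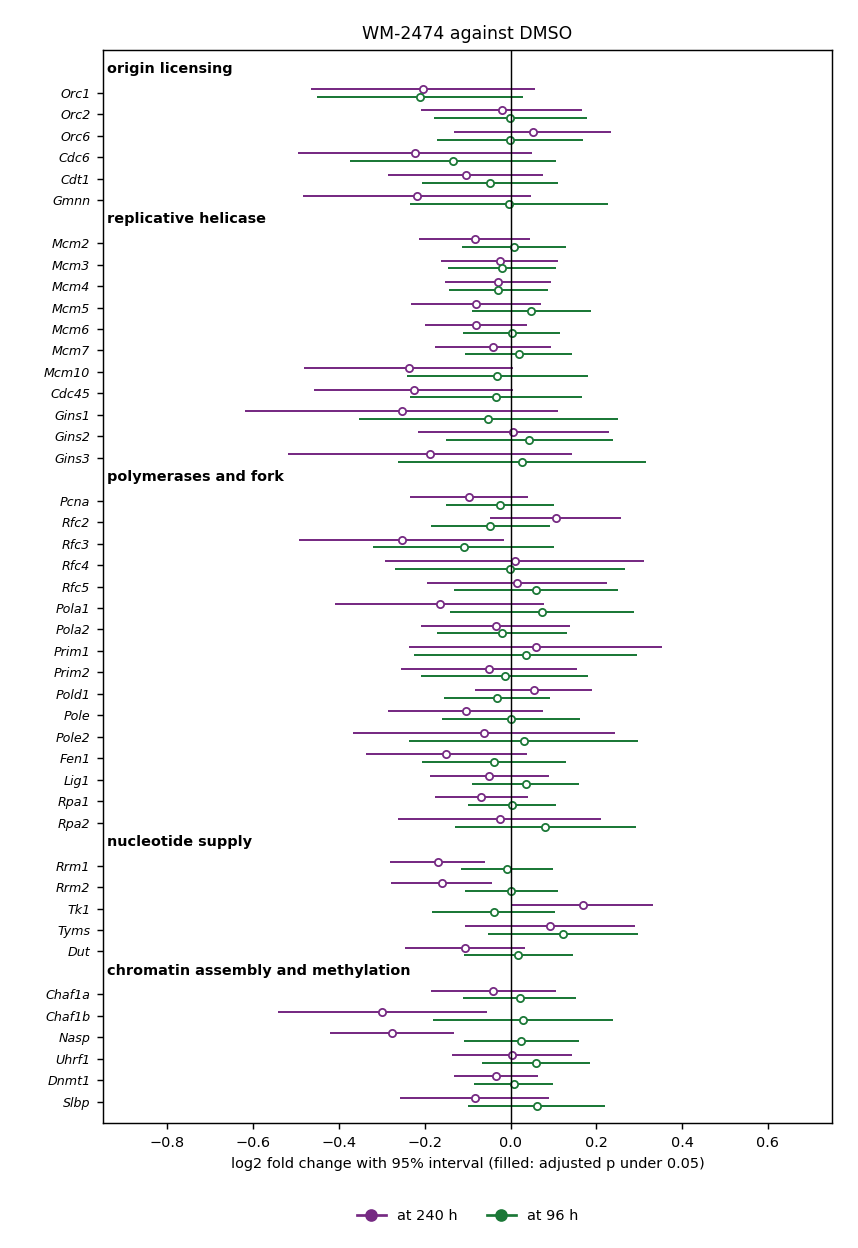
Log2 fold change of WM-2474 against DMSO with its 95% interval for each of the 44 genes by step, at 240 h in purple above 96 h in green. No point is filled, since none passed an adjusted p of 0.05. The 96 h points centre near 0, while 34 of 44 points at 240 h lie left of 0.

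The genes were also grouped by the E2F-type letters shown above. With WM-2474, 14 of 16 genes with a match were lower (median -0.39), and 16 of 21 without one (median -0.36). With DMSO these were 10 of 16 (median -0.29) and 12 of 21 (median -0.26). Of all tested genes, 14.8% were lower with WM-2474 and 17.3% with DMSO. Tk1, Rrm2 and Chaf1b had no match in their windows and fell in both treatments. Orc1 and Gins3 had a match (at -27 and -41) and did not pass in either. Other genes went the other way. Lig1 and Uhrf1 had a match and fell in both treatments, while Orc2, Orc6, Rfc4 and Rfc5 had none and did not pass in either.

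The rest of the pathway was followed in 2 further lists. Of 35 other replication genes, 18 were lower and 1 higher with WM-2474 (median -0.28), and 12 were lower and 1 higher with DMSO (median -0.15). Over all tested genes 14.8% were lower and 15.9% higher with WM-2474, and 17.3% lower and 17.5% higher with DMSO. The polymerase delta subunit Pold2 averaged 25.2 ± 2.01 CPM with WM-2474 and 23.9 ± 2.34 CPM with DMSO at 240 h, against 35.9 ± 2.51 CPM with WM-2474 and 37.2 ± 2.25 CPM with DMSO at 96 h (SD, n = 3 each). Its log2 fold change over time was -0.51 ± 0.08 with WM-2474 and -0.61 ± 0.08 with DMSO, and Chtf18, of an alternative clamp loader, had -0.49 ± 0.09 with WM-2474 and -0.58 ± 0.09 with DMSO. The polymerase epsilon subunit Pole4 was higher with DMSO (0.22 ± 0.08, adjusted p = 0.0269) and had a value of 0.20 ± 0.08 with WM-2474 that did not pass (adjusted p = 0.057).

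Of 29 other nucleotide enzymes, 5 were lower and 4 higher with WM-2474 (median -0.02), and 5 were lower and 5 higher with DMSO (median 0.01). The other 20 with WM-2474 and 19 with DMSO did not pass, and these shares are near those over all tested genes (14.8% lower and 15.9% higher with WM-2474, 17.3% lower and 17.5% higher with DMSO). Higher were Impdh1, of guanine nucleotide synthesis (0.26 ± 0.06 with WM-2474 and 0.25 ± 0.06 with DMSO), and the pyrimidine kinase Cmpk1 (0.28 ± 0.06 with WM-2474 and 0.26 ± 0.06 with DMSO). Lower were the CTP synthase Ctps2 (-0.38 ± 0.08 with WM-2474 and -0.49 ± 0.08 with DMSO) and the deoxynucleotide phosphohydrolase Samhd1 (-0.38 ± 0.06 with WM-2474 and -0.31 ± 0.06 with DMSO). Transcripts of mitosis, the next phase of the cycle, were lower in 30 of 30 genes in each treatment, at medians of -0.54 with WM-2474 and -0.44 with DMSO. Examples were the activator of the anaphase-promoting complex Cdc20 (-0.54 ± 0.06 with WM-2474 and -0.63 ± 0.06 with DMSO) and the kinesin Kif20a (-0.60 ± 0.06 with WM-2474 and -0.58 ± 0.06 with DMSO). In the treatment comparisons 0 genes of these 3 lists passed at either time.

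For 4 of the 44 genes the counting is uncertain, since 26.8% of the 31-base words of Mcm7, 24.2% of those of Uhrf1, 23.3% of those of Pcna and 11.98% of those of Rrm2 also occur in other annotated genes. How the counting treated strand and reads with several matches is not given in the sources used here, and 11 genes overlap a neighbouring protein-coding gene, among them Tk1 with Afmid over 585 bases and Lig1 with Zswim9 over 1547 bases.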

How the data were processed

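The deposited values are unnormalized counts of reads per gene for 12 libraries, which were made with a stranded mRNA kit, per the labels. The counts came from featureCounts on mm10, per the submitters' processing notes, and aligner, versions, annotation and counting options are not given in the sources used here. Of 27179 table entries, 874 without an identifier (0.547 to 0.648% of a library's counts) were left out, and the GRCm38.p6 annotation gave symbols to 96.1% of the 26305 identifiers and to all 44 genes.

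The group-wise filterByExpr filter retained 13499 genes. edgeR 4.0.16 (R 4.3.3) fitted all 12 libraries with 1 coefficient per group, TMM factors (between 0.943 and 0.967 for 240 h libraries and between 1.04 and 1.05 for 96 h libraries) and robust dispersion (common biological variation 5.22%). Two-sided p-values came from the quasi-likelihood F test and were adjusted by Benjamini-Hochberg over all tested genes, with a threshold of 0.05. Values after ± are SE beside a log2 fold change and SD of 3 libraries beside CPM, and intervals are 95% intervals from the same fit. An exact permutation of 3 against 3 libraries cannot go below p = 0.1. RPKM used the exon lengths of the table. The scripts were tested on simulated data.

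The 44 genes, the other lists and the tests were chosen with earlier results of these data known. Values in every library are given for the 2 most negative and 2 most positive genes of each step over time with DMSO, and for the 3 smallest p-values of each other comparison. Other genes are the 2 highest and 2 lowest called genes by p of each further list, and Chaf1b, Rfc3, Mcm2 and the remaining members are given by value only. Replicates were compared in pairs (chi-square per degree of freedom 2.05 to 5.25), and no 2 libraries agreed within sampling noise. At 96 h WM-2474 and DMSO libraries of the same replicate number deviated together from their group means (correlations 0.301, 0.235 and 0.191). Libraries of unlike number were not compared in this way, so that pairing itself was not tested. The other comparisons gave correlations between -0.00783 and 0.132. Alternatives were DESeq2 1.42.0, limma-voom (limma 3.58.1) with quality weights, RLE factors, library totals, 2 other filters (none, or over 1 CPM in 3 or more libraries), a block for the replicate number, fits of the libraries compared, and leaving out libraries. Promoter letters were searched with fixed strings in RefSeq sequences of GRCm38.p6.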

Additional observations from a re-analysis of the deposited data

How the results depend on the processing

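Of the 44 genes, 34 to 41 were lower with WM-2474 and 19 to 40 with DMSO at 240 h against 96 h over the settings that kept all libraries or left out the pair of DMSO 240 h libraries with B-lineage transcripts. With single libraries left out these counts were 32 to 36 and 22 to 29, and 0 were higher in each setting. The highest counts, 41 and 40, came with library totals alone, which moved the medians to -0.51 with WM-2474 and -0.39 with DMSO. All tested genes moved too, with 32.5% lower in each treatment under that scaling. In the main scaling 14.8% were lower with WM-2474 and 17.3% with DMSO. The lowest count with DMSO came without DMSO 240 h replicates 1 and 2. That group then held a single library, so that the count cannot be compared with the other settings. DESeq2 gave 34 with WM-2474 and 23 with DMSO. With the replicate block in a fit of all 12 libraries the counts were 36 and 26, and with the block in fits of the libraries compared they were 36 and 28. In WM-2474 against DMSO at 240 h, 1 gene (Nasp) was lower without a filter and 1 gene (Nasp) with the replicate block in a fit of the libraries compared. In the other settings 0 were lower. Of these, DESeq2 was run with its default filter on mean counts and gave an adjusted p to 8 of the 44 genes. Nasp was not among the 8, so that DESeq2 could not call it. At 96 h, where libraries of the same number deviated together, 0 of the 44 passed with and without the block. For the 22 genes whose values are given in every library, 1160 values were obtained under alternatives. Of these, 32 no longer passed, 19 newly passed and 0 called values changed sign, while 11 values past no threshold did (Orc2, Prim2, Rrm1 and Nasp). The rest of the 44 genes are not in these totals, and some of their calls were also lost, such as those of Prim1, Chaf1b and Fen1 with DMSO. The scarcest transcript was Gins1, with 27 counts in 1 library, and counting error was not separated from the spread between libraries.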
